A study of Rattus norvegicus with 18 samples.

Results

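Oligodendrocyte progenitor cells (OPCs) from aged rats were compared with OPCs from neonate rats after culture on stiff hydrogels. The comparison rests on 6 of the 18 libraries of the study, 3 labelled as cultured aged OPCs on stiff hydrogel and 3 labelled as cultured neonate OPCs on stiff hydrogel, chosen by their labels. Both groups had been sorted magnetically as OPCs, plated on laminin-coated gels and kept in medium with FGF and PDGF, so these conditions were shared by the controls. The 12 other libraries were aged and neonate OPCs on soft hydrogel and primary sorted cells of both ages, 3 libraries each, and the ages of the primary cells were read from the letters of their titles. The labels give no ages in days or months, no stiffness values, no strain and no number of animals per library. Nothing in them shows that a group's libraries stem from different animals. The p-values then measure only how these libraries vary, and part of that may be technical. The series title names the stiffness of the niche as the subject in relation to ageing, and the stiff gel is the condition in which both ages met the same firm substrate.

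OPCs are the dividing precursors of the myelin-forming oligodendrocytes of the brain and spinal cord. They are recognised by the transcription factors Olig1, Olig2 and Sox10, by the PDGF receptor Pdgfra and by chondroitin sulfate proteoglycans, and their capacity to divide and differentiate is known to decline with age. They sense the firmness of their surroundings through integrins, the actin cytoskeleton and stretch-activated channels such as Piezo1. Microglia, the resident phagocytes of the same tissue, can accompany cells sorted from brain, and their genes were followed beside those of the OPC lineage.

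Depth was low in all 6 libraries. Estimated read pairs on annotated exons ran from 33939 to 67031, and from 22669 to 42095 without ribosomal RNA genes, which took 62.5% to 69.0% of all TPM (a relative level per transcript length that sums to the same total in every library) in the aged and 74.0% to 82.4% in the neonate libraries. After scaling between libraries, 1 read pair on a transcript of about 2 kb was worth 5.35 to 10.5 TPM, so a level of 0 means that no pair was seen at that depth. Aged library 1 stood apart: 12371 genes were above 0 in it, against 6850 and 5842 in the other aged and 6598 to 7327 in the neonate libraries. Transcripts of olfactory receptors, genes of the nasal sensory neurons, had reads for 655 of 1197 receptor genes (54.7%) in aged library 1 and for 192 in aged library 2, against 16 in aged library 3 and 23 to 24 in the neonate libraries. Counts of called genes are therefore also given without the broad libraries, that is without library 1 of each aged group. Aged library 2 on stiff gels stayed in, as did aged soft libraries 2 and 3, with 469 and 369 receptor genes. Neonate soft library 2, with 226, stayed in too. A result that held in this setting is therefore not free of uneven coverage between libraries.

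The OPC label was checked against markers. Olig1 was at 63.6, 10.6 and 240.2 in aged against 249, 303 and 758 in neonate libraries (scaled TPM, as are all levels below, given for libraries 1, 2 and 3). Pdgfra was at 11.5, 13.8 and 2.63 in aged against 22.2, 22.4 and 51.2 in neonate libraries. Olig2 was at 29.8, 0 and 17 in aged against 37.4, 96.5 and 99.4 in neonate libraries. Reads on these markers were few in the aged libraries: in aged library 2 Olig1 rested on 1.1 estimated pairs, Sox10 on 0.4 and Olig2 on 0, and in aged library 3 Pdgfra rested on 1.4. Olig1, Pdgfra and Sox10 were above 0 in all 6 libraries, and Olig2 in 5. The 25 tested OPC genes added up to 427, 186 and 672 in aged against 1748, 1661 and 2389 in neonate libraries, whereas the 36 microglial genes added up to 1612, 1949.5 and 910.0 in aged against 74, 92.5 and 137 in neonate libraries. In each aged library the microglial sum was above the OPC sum, and in each neonate library it was below. In bulk RNA, fewer cells of a type and less RNA per cell cannot be told apart. The part that the cell makeup plays in the differences below was not tested.

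Of 15144 genes tested, 330 differed between the ages on stiff gels at an adjusted p below 0.05 (limma with Benjamini-Hochberg adjustment), which is 2.18%. In the aged cells 171 genes were higher (1.13%) and 159 lower (1.05%), and 2058 genes had an unadjusted p below 0.05. Without the broad libraries 187 were higher and 285 lower of 12370 tested, so the share of higher calls went from 51.8% to 39.6%, and the median difference of all tested genes went from 0.49 to 0. The genes that rose included Ccl3, Nab2, Gpnmb, Lyz2 and Cd14, and the genes that fell included Sox10, Bcan, Scd2, Gpi, Actg1, ribosomal protein genes and histone genes. Differences are given on the log2 scale as aged minus neonate ± SE, with limma's adjusted p. The size of the called differences ran from 2.03 to 8.92 for the rises and from 1.74 to 7.56 for the falls, whose values are negative. The median difference of all tested genes was 0.49, so a gene with a difference of 0 lay below the typical gene. In 77 of the 171 rises all 3 neonate libraries were at 0, beside 5382 of all 15144 tested genes. In 35 of the 159 falls all 3 aged libraries were at 0, beside 1859 of all tested genes. For genes at 0 in all libraries of an age the fitted difference depends on the 1 that was added to each level, so only their levels and adjusted p are given below. The libraries of the 2 ages did not overlap for 171 of 171 rises and 157 of 159 falls, beside 5.61% of all tested genes with every aged library above every neonate library and 4.79% with every one below. A gene could pass the filter, a level of 1 in 3 of the 18 libraries, through the group in which it was high, so counts over tested members are descriptions.

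**Figure D1:**
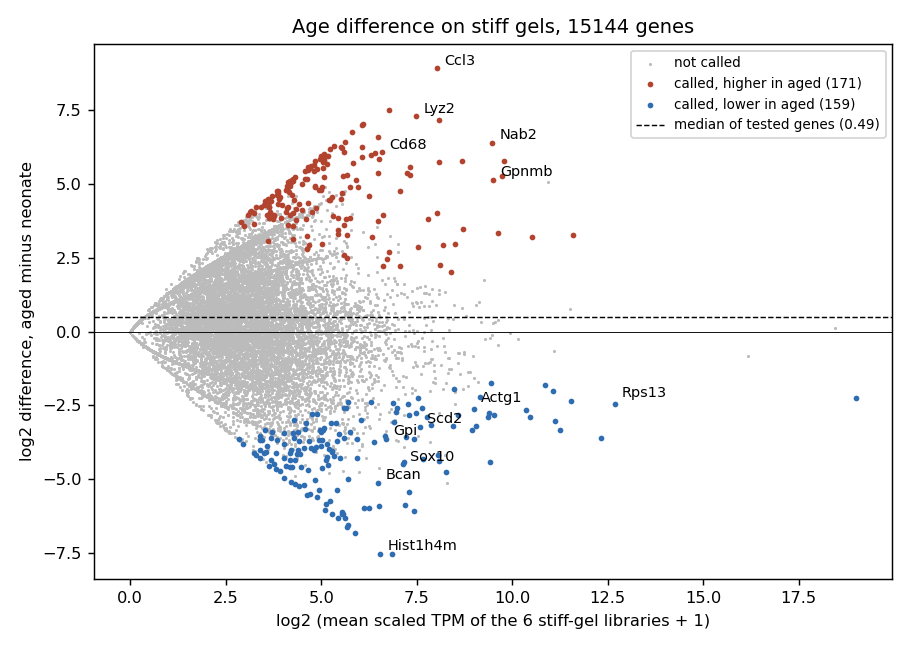
Each point is 1 of 15144 tested genes: the x axis is the log2 mean scaled TPM of the 6 stiff-gel libraries plus 1, the y axis the log2 difference of aged minus neonate libraries, red and blue points passed an adjusted p of 0.05, and the dashed line is the median of 0.49. The 171 rises and 159 falls lie along the outer edges, many on the straight edges formed by genes at 0 in one age.

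The count depended on how the spread was estimated. The fit drew its spread from all 18 libraries; with the 6 stiff-gel libraries alone 12 genes were called higher and 9 lower. Without aged library 1 the count was 143 higher and 236 lower, and without aged library 2 it was 150 and 117. Without aged library 3 it was 440 higher and 254 lower, without neonate library 1 it was 124 and 94, without neonate library 2 it was 114 and 71, and without neonate library 3 it was 114 and 83. Libraries thinned to 23815 pairs gave 80 and 57, and without scaling between libraries the split was 172 to 50, beside 110 to 157 with quantile normalization. None of the 330 called genes changed sign under any of the alternatives in which it was tested.

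**Figure D2:**
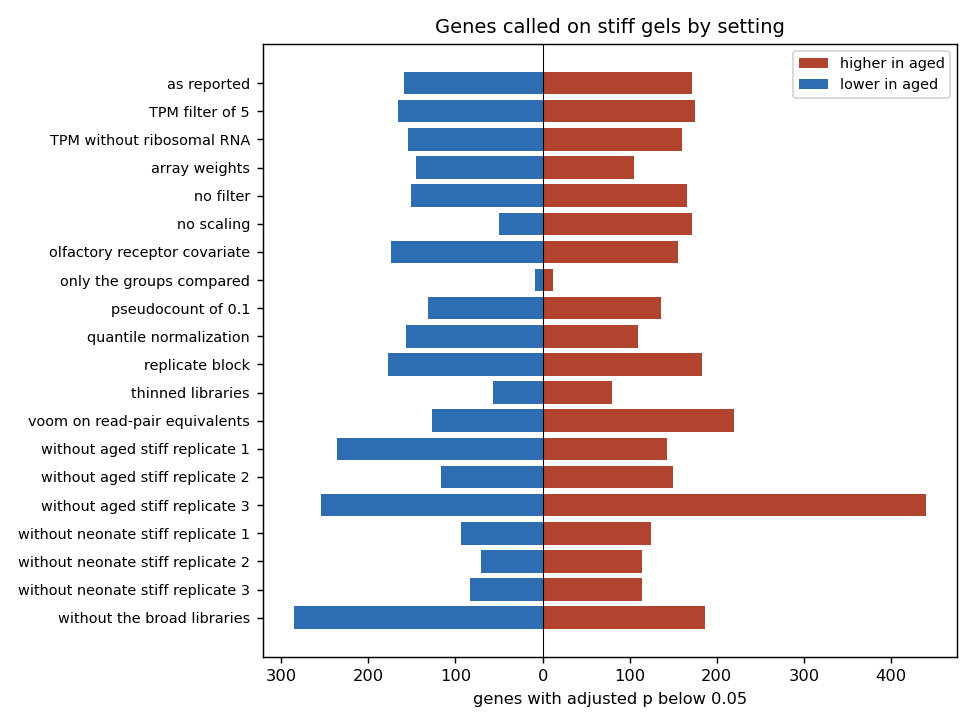
Bars give the number of genes called higher (red, to the right) and lower (blue, to the left) in aged libraries on stiff gels, with 1 row per setting; the top row is the fit reported. The fit of only the groups compared, with 12 and 9 genes, is the shortest, and leaving out aged library 3, with 440 and 254, is the longest.

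Of the 12 largest rises in the aged cells, 6 were members of the microglial, activated phagocyte or Fc receptor and oxidase lists: Ccl3, Lyz2, Cyba, Cd14, Fcgr2a and Fcer1g. The others, Ptpn6, Nab2, Trpt1, Ddx39a, Fxyd2 and LOC500300, belonged to no list. Ccl3, a chemokine released by activated microglia and macrophages, was at 537, 724 and 293 in aged against 0 in all 3 neonate libraries (adjusted p = 8.47e-07). Gpnmb, a glycoprotein of lipid-loaded phagocytes, was at 1264, 1530.2 and 1361 in aged against 91.7, 35.8 and 16.7 in neonate libraries, a 28.8-fold ratio of means (log2 5.14 ± 0.66, adjusted p = 3.87e-05). Lyz2, the lysozyme of myeloid cells, was at 330.0, 228 and 505 in aged against 8.8, 0 and 0 in neonate libraries (log2 7.30 ± 1.17, adjusted p = 4.43e-04). Gpnmb was not among the 12. In all 3 genes every aged library lay far above every neonate library. Of the 28 tested genes of the activated phagocyte list, 8 rose and 0 fell, with a median difference of 2.20 beside 0.49 for all genes, and without the broad libraries 7 rose and 0 fell. Ctsz, a cathepsin, was at 169.7, 282 and 76.5 in aged against 0, 13.6 and 0.328 in neonate libraries (log2 5.85 ± 0.84, adjusted p = 1.40e-04), and its exons overlap Nelfcd on the other strand.

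Some of the genes that mark microglia moved the same way. Of 36 tested microglial genes 11 rose and 0 fell, with a median of 2.71, and without the broad libraries 10 rose and 0 fell. Cd14, a co-receptor for bacterial lipopolysaccharide, was at 94.5, 100.3 and 135 in aged against 0 in all 3 neonate libraries (adjusted p = 3.18e-05). Irf8, a transcription factor needed for microglial identity, was at 49.9, 124 and 37.1 in aged against 0 in all 3 neonate libraries (adjusted p = 4.11e-04). Laptm5, a lysosomal membrane protein of blood-derived cells, was at 36.6, 49.6 and 26.9 in aged against 0 in all 3 neonate libraries (adjusted p = 4.11e-04). All 3 genes were listed at 0 in the neonate libraries. Cd68, the lysosomal protein used to stain phagocytes, was at 81.7, 324 and 151 in aged against 0, 0 and 12.1 in neonate libraries (log2 6.08 ± 0.97, adjusted p = 4.43e-04). Ptpn6, the phosphatase that damps signalling in blood-derived cells, was at 90.3, 80.1 and 65.4 in aged against 0 in all 3 neonate libraries (adjusted p = 8.35e-05).

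The genes most specific to resting microglia were near the detection limit. Cx3cr1, the fractalkine receptor, was at 41.4, 0 and 0 in aged against 0 in all 3 neonate libraries (adjusted p = 0.615). Tmem119 was at 10.1, 0 and 10.8 in aged against 0 in all 3 neonate libraries (adjusted p = 0.352). Neither passed the test, and both were at 0 in the neonate libraries. Trem2, chosen after its values were seen as a defining receptor, was at 3.76, 0 and 0 in aged against 0 in all 3 neonate libraries. P2ry12, chosen in the same way, was at 0, 18.2 and 0 in aged against 1.8, 0 and 0 in neonate libraries. The number of the 36 microglial genes above 0 was 31, 26 and 21 in aged against 9, 6 and 10 in neonate libraries.

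Receptors and effectors of phagocytosis showed the highest share of calls. Of 19 tested Fc receptor and NADPH oxidase genes 9 rose and 0 fell, a median of 3.48, and without the broad libraries 7 rose and 0 fell. Fcgr2a, a receptor for the constant part of antibodies, was at 131, 119 and 39.4 in aged against 0 in all 3 neonate libraries (adjusted p = 9.84e-05). Fcer1g, the signalling chain of Fc receptors, was at 70.4, 162 and 36.4 in aged against 0 in all 3 neonate libraries (adjusted p = 0.00149). Cyba, the small membrane subunit of the phagocyte oxidase, was at 178, 93.1 and 123 in aged against 0 in all 3 neonate libraries (adjusted p = 1.66e-04). Rac2, the GTPase that activates this oxidase, was at 175, 148 and 68.7 in aged against 6.98, 0 and 0 in neonate libraries (log2 5.93 ± 0.94, adjusted p = 4.38e-04). The 3 genes with the neonate libraries at 0 were seen on few reads: Fcer1g rested on 9.7 estimated pairs over the 3 aged libraries, Cyba on 18.5 and Fcgr2a on 25.

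Complement, antigen presentation and lysosome genes had fewer calls. Among complement genes 4 of 20 tested members rose and 0 fell, with a median of 2.17, and without the broad libraries 3 rose and 0 fell. C3, the central component of the cascade, was at 27.9, 54.1 and 23.6 in aged against 0 in all 3 neonate libraries (adjusted p = 5.95e-04). Itgb2, the shared chain of the complement receptors, was at 37.6, 23 and 39.1 in aged against 0 in all 3 neonate libraries (adjusted p = 0.00146). Itgam, its partner chain, was at 54.5, 106 and 3.39 in aged against 0 in all 3 neonate libraries (adjusted p = 0.00562). Itgam lost its call without aged library 2 (adjusted p up to 0.0514). Serping1, the C1 inhibitor, was at 43.5, 127 and 32.2 in aged against 16.9, 0 and 0 in neonate libraries (log2 4.46 ± 1.19, adjusted p = 0.0425). Serping1 lost its call without aged library 1, aged 2, neonate 2 or neonate 3 (adjusted p up to 0.226). So C3 and Itgb2 held with any one stiff-gel library left out, whereas Itgam and Serping1 did not.

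For the MHC and antigen processing list 2 of 27 tested members rose and 0 fell, and without the broad libraries 0 rose and 0 fell. Cd74, the invariant chain of class II molecules, was at 174, 207 and 48 in aged against 0, 6.47 and 16.2 in neonate libraries (log2 4.59 ± 0.99, adjusted p = 0.00897). Cd74 lost its call without neonate library 1 (adjusted p up to 0.101). RT1-CE5, a rat class I gene from a family of near copies among which reads can be split, was at 34.7, 33.9 and 1.79 in aged against 0 in all 3 neonate libraries (adjusted p = 0.0441). RT1-CE5 lost its call without aged library 1, aged 2, neonate 1, neonate 2 or neonate 3 (adjusted p up to 0.206). Both calls were therefore unstable. In the lysosome list 5 of 42 tested members rose and 0 fell, and without the broad libraries 5 rose and 1 fell. Ctsk, a collagen-cleaving cathepsin, was at 62.1, 34.6 and 48.5 in aged against 0 in all 3 neonate libraries (adjusted p = 9.38e-04). Lgmn, the asparaginyl endopeptidase of lysosomes, was at 231, 499 and 176 in aged against 0, 33.1 and 8.87 in neonate libraries (log2 5.30 ± 0.96, adjusted p = 0.00157). None of the interferon response genes passed the test in limma (0 of 31 tested members rose and 0 fell, 5 at an unadjusted p below 0.05, 0 called by voom): Ifit3 was at 7.34, 27.9 and 11.6 in aged against 0, 0 and 1.81 in neonate libraries (log2 3.36 ± 1.09, adjusted p = 0.122) and Ifitm3 at 104, 0 and 74.5 in aged against 0 in all 3 neonate libraries (adjusted p = 0.189). Among chemokines and cytokines 2 of 32 tested members rose and 0 fell (without the broad libraries 2 rose and 0 fell), Ccl3 above and Cxcl2, which draws neutrophils, at 13.2, 165 and 10.7 in aged against 0 in all 3 neonate libraries (adjusted p = 0.0229). Cxcl2 lost its call without aged library 2, neonate 1, neonate 2 or neonate 3 (adjusted p up to 0.182).

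**Figure D3:**
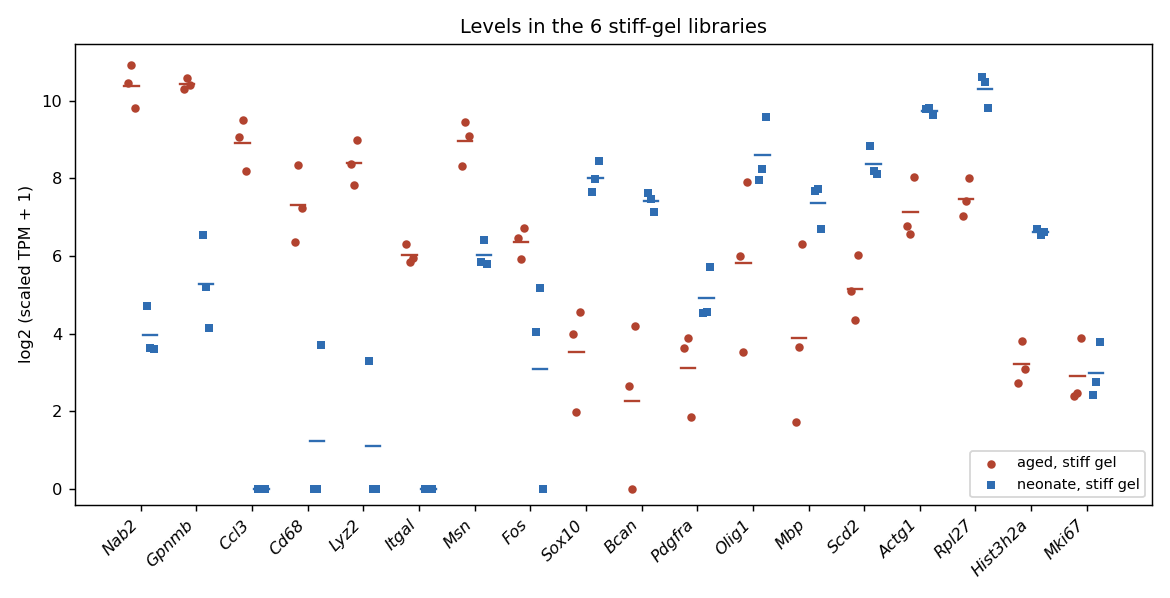
The log2 of scaled TPM plus 1 is shown for 18 genes in each of the 3 aged (red circles) and 3 neonate (blue squares) stiff-gel libraries, with a bar at the mean of each age. Nab2 to Fos lie higher in all aged libraries, Sox10, Bcan, Scd2, Actg1, Rpl27 and Hist3h2a lie lower, and the Pdgfra, Olig1, Mbp and Mki67 differences did not pass the test.

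Cytoskeletal and adhesion genes that rose included several of leukocytes. Of 29 tested integrin and adhesion genes 5 rose and 0 fell, and without the broad libraries 5 rose and 0 fell. Itgal, the alpha chain of the leukocyte integrin LFA-1, was at 77.7, 56.3 and 60.4 in aged against 0 in all 3 neonate libraries (adjusted p = 2.88e-04). Fermt3, the kindlin of blood-derived cells, was at 41.3, 107 and 56.3 in aged against 2.45, 0 and 6.3 in neonate libraries (log2 4.45 ± 0.75, adjusted p = 7.39e-04). In the actin and myosin list, 3 of 42 tested members rose and 1 fell, and without the broad libraries 3 rose and 3 fell. Lcp1, the leukocyte actin bundler of that list, was at 44.9, 77.6 and 31.7 in aged against 0 in all 3 neonate libraries (adjusted p = 5.03e-04). Msn, which links actin to the membrane, was at 317, 697 and 548 in aged against 56.9, 84.9 and 54.2 in neonate libraries (log2 2.93 ± 0.54, adjusted p = 0.00177). Tpm4, a tropomyosin that stabilises actin filaments, was at 101, 111 and 117 in aged against 8.6, 0 and 0 in neonate libraries (log2 5.70 ± 1.02, adjusted p = 0.00134). Msn was present in the neonate libraries, while Tpm4 was seen in only 1 of them, on 0.7 estimated pairs. Actg1, the cytoplasmic gamma actin, went the other way, at 109, 94 and 262 in aged against 889, 906 and 787 in neonate libraries (log2 -2.62 ± 0.44, adjusted p = 7.94e-04).

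Lists of genes that report mechanical signalling held few calls. Of 24 tested targets of YAP and TAZ, the coactivators that enter the nucleus on stiff substrates, 0 rose and 0 fell in limma (4 at an unadjusted p below 0.05, 1 called by voom; median 0.30; with quantile normalization the median was -0.177). The smallest p-values there belonged to Nt5e, at 17.4, 9.7 and 33.7 in aged against 0, 5.98 and 3.24 in neonate libraries (log2 2.62 ± 0.99, adjusted p = 0.222), and Myof, at 20.1, 6.52 and 3.13 in aged against 0 in all 3 neonate libraries (adjusted p = 0.225). Of 22 tested mechanosensitive channel genes 2 rose, with a median of 1.24 and 18 of 22 above 0, and without the broad libraries 0 rose and 0 fell. Trpc6 was at 22.5, 58.4 and 9.9 in aged against 0, 0 and 7.56 in neonate libraries (log2 3.60 ± 0.92, adjusted p = 0.0325). Trpc6 lost its call without aged library 1, aged 2, neonate 1 or neonate 2 (adjusted p up to 0.181). Trpv2 was at 40, 3.41 and 29.8 in aged against 1.02, 0 and 0 in neonate libraries (log2 3.81 ± 1.03, adjusted p = 0.045). Trpv2 lost its call without aged library 1, aged 3, neonate 1, neonate 2 or neonate 3 (adjusted p up to 0.158). Piezo1, the stretch-activated channel of OPCs, was at 27.2, 25.5 and 5.41 in aged against 1.15, 2.78 and 2.3 in neonate libraries, with no overlap between the ages, but it did not pass the test (log2 2.49 ± 0.93, adjusted p = 0.214), and its exons overlap Ctu2 on the other strand. Among serum response factor targets 2 of 23 tested members rose and 1 fell, with a median of 0.78, and without the broad libraries 0 rose and 2 fell. Mcl1, a survival factor, was at 71.2, 107 and 108 in aged against 22.5, 10.8 and 0 in neonate libraries (log2 3.86 ± 0.96, adjusted p = 0.027). Mcl1 lost its call without aged library 2 or neonate 3 (adjusted p up to 0.234).

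Few matrix genes passed the test, and most differences were above 0, as was the median of all genes. None of 14 tested collagen genes passed the test in limma (1 at an unadjusted p below 0.05, 0 called by voom), with a median of 0.86 and 12 of 14 above 0. Col4a1 was at 14.9, 10.2 and 26 in aged against 0.716, 12.4 and 1.65 in neonate libraries (log2 2.10 ± 0.93, adjusted p = 0.32) and Col3a1 at 10.5, 1.32 and 2.46 in aged against 0, 1.15 and 0 in neonate libraries (log2 1.81 ± 0.93, adjusted p = 0.406). Of 29 tested other matrix genes 1 fell and 0 rose, with a median of 0.76 and 19 above 0, and without the broad libraries 0 rose and 0 fell and the median was 0. The one that fell was Sparcl1, a matrix protein of glia, at 4.06, 8.66 and 43.3 in aged against 239.8, 259 and 52.4 in neonate libraries (log2 -3.53 ± 0.84, adjusted p = 0.0206). Sparcl1 lost its call without aged library 1, aged 2, neonate 1 or neonate 2 (adjusted p up to 0.13). The gelatinases Mmp2 and Mmp9 rose and belong to the list of cell cycle inhibitors and senescence genes, of which 2 of 26 tested members rose and 1 fell, and without the broad libraries 2 rose and 1 fell. Mmp2 was at 39.7, 39.6 and 46.7 in aged against 6.68, 3.37 and 5.83 in neonate libraries (log2 2.81 ± 0.71, adjusted p = 0.0296). Mmp2 lost its call without aged library 2, neonate 1, neonate 2 or neonate 3 (adjusted p up to 0.145). Mmp9 was at 41.9, 29.1 and 19.2 in aged against 0, 4.67 and 0 in neonate libraries (log2 4.06 ± 1.08, adjusted p = 0.043). Mmp9 lost its call without aged library 1, aged 2, neonate 1 or neonate 3 (adjusted p up to 0.194).

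Immediate early genes had a median difference of 1.87, above the 0.49 of all genes. Of 27 tested members 20 were above 0 and 5 below, and of all 15144 tested genes 9029 were above 0. In 10 members every aged library was above every neonate library, beside 5.61% of all tested genes. In 2 members every aged library was below, beside 4.79%. At an unadjusted p below 0.05, 12 members were higher and 1 was lower. Adjusted, 2 rose and 0 fell, and without the broad libraries 2 rose and 1 fell. The 2 were Ier5 at 87.5, 119.5 and 57.1 in aged against 0, 19.5 and 9.93 in neonate libraries (log2 3.81 ± 0.81, adjusted p = 0.00778) and Fos, a component of AP-1, at 88, 59.7 and 104 in aged against 15.6, 35.5 and 0 in neonate libraries (log2 3.29 ± 0.85, adjusted p = 0.0347). Ier5 lost its call without neonate library 1 (adjusted p up to 0.0797). Fos lost its call without aged library 1, aged 2, aged 3 or neonate 3 (adjusted p up to 0.302). Among the inhibitors of cyclin-dependent kinases, Cdkn1c (p57) fell from 45.9, 61.8 and 33.4 in the neonate libraries to 0 in all 3 aged libraries (adjusted p = 0.00306). Cdkn1a (p21) was at 6.77, 12.8 and 6.33 in aged against 9.93, 16.2 and 8.78 in neonate libraries and did not pass the test (log2 -0.41 ± 0.99, adjusted p = 0.899), and Cdkn2a (p16 and Arf), the senescence marker, was listed at 0 in all 6 libraries and was not tested. No S phase or G2 and M phase gene passed the test in limma, of 35 and 32 tested (for S phase 4 at an unadjusted p below 0.05, 0 called by voom, for G2 and M phase 2 at an unadjusted p below 0.05, 0 called by voom). Mki67, the proliferation marker, was at 4.25, 4.51 and 13.9 in aged against 4.31, 5.72 and 12.8 in neonate libraries (log2 -0.07 ± 0.85, adjusted p = 1), and the ages overlapped. Rrm2, which makes DNA precursors, was at 17.2, 6.81 and 64.4 in aged against 63.5, 205 and 144 in neonate libraries (log2 -2.56 ± 0.85, adjusted p = 0.136), Pcna at 22.9, 17.7 and 0 in aged against 62.5, 38.9 and 42.9 in neonate libraries (log2 -2.65 ± 1.09, adjusted p = 0.273) and Top2a at 7.17, 0 and 4.71 in aged against 19.2, 28.3 and 14.5 in neonate libraries (log2 -2.54 ± 1.05, adjusted p = 0.277). Hmmr, of the G2 and M phase list, went the other way, at 20, 12.5 and 0 in aged against 0 in all 3 neonate libraries (adjusted p = 0.354). The S phase list had a median of 0.21, with 18 members above 0 and 15 below. For the G2 and M phase list the median was -0.31, with 12 above 0 and 18 below.

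As a list, genes of the OPC lineage lay lower in the aged cells. Of 25 tested OPC genes 3 fell and 0 rose, with a median difference of -1.97, and without the broad libraries 0 rose and 4 fell. Sox10, the transcription factor of the whole lineage, was at 15, 2.97 and 22.7 in aged against 199, 251 and 347 in neonate libraries, a 19.6-fold ratio of means (log2 -4.50 ± 0.75, adjusted p = 6.50e-04). Bcan (brevican), a proteoglycan of OPCs and perineuronal matrix, was at 5.26, 0 and 17.3 in aged against 195, 177 and 140.0 in neonate libraries (log2 -5.13 ± 0.87, adjusted p = 7.94e-04). Ncan (neurocan), a related proteoglycan, was at 11.3, 12.1 and 66.4 in aged against 219, 352 and 227 in neonate libraries (log2 -3.56 ± 0.81, adjusted p = 0.0137). Ncan lost its call without aged library 1, aged 2 or neonate 2 (adjusted p up to 0.079). Sox10 and Bcan had no overlap between ages and held whichever stiff-gel library was left out. Olig1 (log2 -2.77 ± 0.81, adjusted p = 0.074) and Pdgfra (log2 -1.80 ± 0.91, adjusted p = 0.394) were lower on average but did not pass, and neither did Olig2 (log2 -3.14 ± 0.96, adjusted p = 0.0918) or Cspg4 (NG2), at 11.6, 10.1 and 34 in aged against 7.66, 3.26 and 22.2 in neonate libraries (log2 0.84 ± 0.83, adjusted p = 0.669).

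Of 17 tested genes of committed oligodendrocytes 2 fell and 0 rose (median -1.57), and without the broad libraries 0 rose and 1 fell. Sirt2, a deacetylase of the myelin sheath, was at 31.2, 50 and 59.4 in aged against 506, 384 and 378 in neonate libraries (log2 -3.18 ± 0.64, adjusted p = 0.0051). Lims2, an adaptor at integrin contacts, was at 29.7, 59.7 and 251 in aged against 519, 642 and 1476 in neonate libraries (log2 -3.35 ± 0.82, adjusted p = 0.0231). Lims2 lost its call without aged library 1, aged 2, neonate 2 or neonate 3 (adjusted p up to 0.136). The annotation places it within 1000 bases of Gpr17, a receptor of this same stage. In the mature oligodendrocyte list 1 of 28 tested members rose and 0 fell, and without the broad libraries 1 rose and 0 fell. The riser was Gsn (gelsolin), which cuts actin filaments and is also made by other cells, at 70.2, 25.2 and 53.9 in aged against 0 in all 3 neonate libraries (adjusted p = 4.34e-04). Mbp, a major myelin protein, was at 2.3, 11.6 and 79 in aged against 202, 211 and 102 in neonate libraries (log2 -3.46 ± 1.04, adjusted p = 0.0853). It did not pass the test.

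Lipid and energy genes that passed the test were all lower. Of 21 tested fatty acid synthesis genes 2 fell, 0 rose and the median was -1.86, while without the broad libraries 0 rose and 6 fell. Scd2, the desaturase of brain and glia, was at 33.4, 19.3 and 64.4 in aged against 454, 290.3 and 278 in neonate libraries (log2 -3.22 ± 0.54, adjusted p = 7.32e-04). Fads1, a desaturase of long fatty acids, was at 4.89, 0 and 3.51 in aged against 54.5, 23.1 and 24 in neonate libraries (log2 -3.43 ± 0.84, adjusted p = 0.0245). Fads1 lost its call without aged library 2, neonate 1, neonate 2 or neonate 3 (adjusted p up to 0.146). No gene of cholesterol synthesis passed the test in limma, of 25 tested (7 at an unadjusted p below 0.05, 0 called by voom; median -1.06), though without the broad libraries 0 rose and 2 fell; Mvk was at 0 in all 3 aged against 11.3, 15.7 and 22.9 in neonate libraries (adjusted p = 0.0877) and Hmgcs1 at 23, 0 and 13.5 in aged against 41.2, 42.9 and 69 in neonate libraries (log2 -2.85 ± 0.92, adjusted p = 0.123). Gpi, the second enzyme of glycolysis, was at 9.25, 23.2 and 12.7 in aged against 196, 248 and 132 in neonate libraries (log2 -3.64 ± 0.63, adjusted p = 9.63e-04) and was the called member among 23 tested; without the broad libraries 0 rose and 3 fell. Of 67 tested oxidative phosphorylation genes 3 fell and 0 rose, and without the broad libraries 0 rose and 7 fell. Atp5o, a stalk subunit of ATP synthase, was at 0 in all 3 aged against 51.4, 97.6 and 159.9 in neonate libraries (adjusted p = 3.44e-04), on 18.1 estimated pairs in the neonate libraries. Atp5h, another stalk subunit, was at 0 in all 3 aged against 124, 81.8 and 14.3 in neonate libraries (adjusted p = 0.01). Atp5h lost its call without neonate library 1 or neonate 2 (adjusted p up to 0.0722). Ndufb11 of complex I was at 0 in all 3 aged against 38.1, 25.8 and 28.4 in neonate libraries (adjusted p = 0.0407). Ndufb11 lost its call without aged library 1, aged 2, aged 3, neonate 1, neonate 2 or neonate 3 (adjusted p up to 0.142).

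The most numerous group of falls was the cytosolic ribosomal proteins. Of 79 tested genes 21 fell and 0 rose, and the median was -1.96 beside 0.49 for all genes, with 73 of the 79 below 0. Without the broad libraries 0 rose and 21 fell, without scaling 6 fell and the median was -1.27 and with quantile normalization 17 fell and it was -1.93. Thinned libraries gave 11 falls, and the fit of the 6 stiff-gel libraries alone gave 1. Their levels added up to 9583, 9862 and 17072 in aged against 36818, 43804 and 32654 in neonate libraries. Rpl27 was at 129, 170.1 and 255 in aged against 1577, 1422 and 895 in neonate libraries, a 7.02-fold ratio of means (log2 -2.82 ± 0.40, adjusted p = 1.13e-04). Rpl39 was at 148, 378 and 739 in aged against 1908, 2580.3 and 2136 in neonate libraries (log2 -2.66 ± 0.46, adjusted p = 9.38e-04). Rps13 was at 869, 1832 and 4408 in aged against 8802, 13588 and 9897 in neonate libraries (log2 -2.47 ± 0.44, adjusted p = 0.00115). Rps16 was at 0 in all 3 aged against 93.1, 125 and 82.2 in neonate libraries (adjusted p = 1.50e-04). The neonate libraries were above all aged libraries in each of these 4 genes. Ribosomal protein genes have many near-identical pseudogenes, so a gene's own level is uncertain where reads could be split.

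Other parts of the protein machinery had fewer calls. None of 60 tested mitochondrial ribosomal protein genes (12 at an unadjusted p below 0.05, 0 called by voom; median -0.60) and none of 37 translation factors (5 at an unadjusted p below 0.05, 0 called by voom; median -0.56; without scaling 0.151) passed the test in limma. Without the broad libraries 1 mitochondrial ribosomal protein gene and 0 translation factors fell. Among the translation factors 10 differences were above 0 and 27 below. Tpt1, a growth-linked protein, was at 118, 346 and 351 in aged against 811, 897 and 539 in neonate libraries (log2 -1.59 ± 0.44, adjusted p = 0.0542). Eif5b, of the translation factor list, went the other way without passing, on 21.9 estimated pairs in aged and 6.4 in neonate libraries. Mrpl23 was at 54.9, 222 and 102 in aged against 434, 389 and 261 in neonate libraries (log2 -1.70 ± 0.58, adjusted p = 0.153). Of 34 tested proteasome genes Psmd13 fell, at 0, 0 and 15.5 in aged against 121, 30 and 35.3 in neonate libraries (log2 -4.34 ± 0.89, adjusted p = 0.00569). Psmd13 lost its call without neonate library 1 (adjusted p up to 0.0555). Leaving out the broad libraries gave 2 falls in this list. Among heat shock genes Dnajb1 fell, at 0, 26 and 0 in aged against 27.2, 28.9 and 37.8 in neonate libraries (log2 -3.42 ± 0.91, adjusted p = 0.0433). Dnajb1 lost its call without aged library 1, aged 3, neonate 1, neonate 2 or neonate 3 (adjusted p up to 0.176). It was 1 of 31 tested members, and 1 fell without the broad libraries too.

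Histone genes had the lowest median of all 44 lists, -3.05, or -2.57 over the 16 members above 0 in both ages. Of 28 tested members 10 fell and 0 rose, and without the broad libraries 0 rose and 12 fell. Replication-dependent histone genes are transcribed in S phase and their mRNAs lack a poly(A) tail, which a total RNA library can hold. Hist3h2a, an H2A gene, was at 5.6, 13.2 and 7.58 in aged against 103, 91.6 and 97.6 in neonate libraries (log2 -3.40 ± 0.58, adjusted p = 8.61e-04). Hist1h4m, an H4 gene, was at 0 in all 3 aged against 204, 174 and 174 in neonate libraries (adjusted p = 4.43e-04), on 14.2 estimated pairs. Hist2h3c2, an H3 gene, was at 0, 0 and 19.1 in aged against 152, 273 and 102 in neonate libraries (log2 -5.90 ± 0.93, adjusted p = 4.11e-04). Hist1h2ak, Hist1h2an and Hist1h2bd were each at 0 in all 3 aged libraries. In the neonate libraries Hist1h2ak was at 45.6, 102 and 80.1 (adjusted p = 7.02e-04), Hist1h2bd at 91, 159.9 and 22.2 (adjusted p = 0.00104) and Hist1h2an at 43.4, 46.9 and 181 (adjusted p = 0.0126). Hist1h2an lost its call without neonate library 3 (adjusted p up to 0.0813). Histone genes are near copies of each other, so reads could be split among them.

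The 150 bases before the RefSeq start (assembly GRCr8) of these 3 histone genes are shown because the genes fell together and their family shares the letters CCAAT. The CCAAT box is searched on both strands, as CCAAT or ATTGG, and the matches are in capitals.
Hist1h2ak: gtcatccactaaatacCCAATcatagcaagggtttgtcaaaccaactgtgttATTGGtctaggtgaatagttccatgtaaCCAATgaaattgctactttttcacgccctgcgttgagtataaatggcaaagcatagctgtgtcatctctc
Hist1h2bd: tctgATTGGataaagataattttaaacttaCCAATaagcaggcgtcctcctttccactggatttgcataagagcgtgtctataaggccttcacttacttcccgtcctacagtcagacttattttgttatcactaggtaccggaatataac
Hist1h2an: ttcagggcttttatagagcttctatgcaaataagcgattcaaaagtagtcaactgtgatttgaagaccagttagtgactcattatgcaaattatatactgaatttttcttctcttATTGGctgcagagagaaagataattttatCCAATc
The windows lie at chr17:47496128-47496277 on the minus strand for Hist1h2ak (H2ac4 in RefSeq), at chr17:47489009-47489158 on the minus strand for Hist1h2bd, and at chr17:41962541-41962690 on the plus strand for Hist1h2an. In the 250 bases before the start, the letters CCAAT were held by 19 of the 23 tested histone genes with a window (82.6%), beside 34.3% of 27457 promoters, and the octamer ATTTGCAT was held by 9 of 23 (39.1%), beside 1.5%. Of the called histone genes with a window, 7 of 9 (77.8%) held CCAAT and 3 of 9 (33.3%) the octamer. Whether these letters go with the fall was not tested. In the 128 called rises with a window the letters GAGGAAGT, read by the myeloid factor PU.1, were held by 3 (2.34%), beside 2.38% of the falls and 2.04% of all promoters. They were held by 3 of 24 tested microglial genes with a window (12.5%) and 2 of 10 tested Fc receptor and oxidase genes (20%). A match describes the letters in this window and is no binding site by itself.

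**Figure D4:**
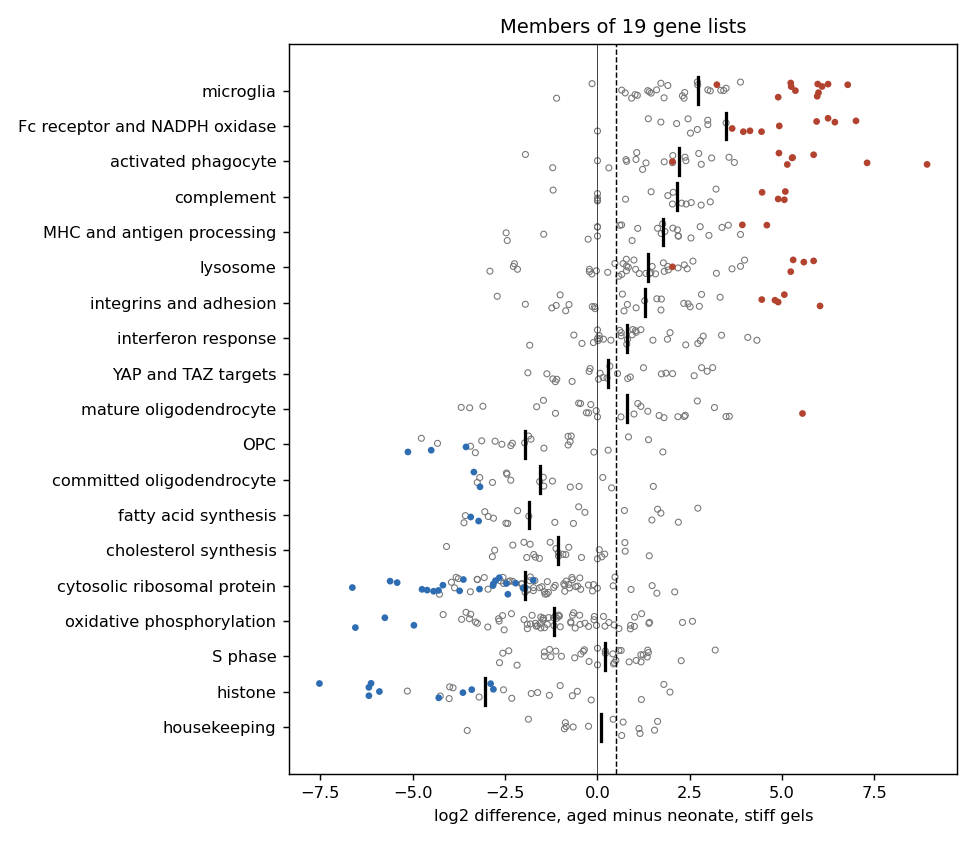
Each point is a tested member of 1 of 19 gene lists, placed on the x axis by its log2 difference of aged minus neonate stiff-gel libraries; filled points passed an adjusted p of 0.05, black bars are list medians, and the dashed line is the median of all tested genes, 0.49. Lists of microglial and phagocyte genes lie to the right of that line and those of OPC, ribosomal protein and histone genes to the left.

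Some genes of other neural cells were lower in the aged libraries. Of 25 tested neuron genes 3 fell and 0 rose, and without the broad libraries 0 rose and 6 fell. Dlx1, a transcription factor of interneuron precursors, was at 10.7, 5.46 and 0 in aged against 55.4, 62.5 and 44.1 in neonate libraries (log2 -3.69 ± 0.75, adjusted p = 0.00546). Sp8, a factor of the same precursors, was at 0 in all 3 aged against 5.26, 35.2 and 17.2 in neonate libraries (adjusted p = 0.0449). Sp8 lost its call without aged library 1, aged 2, neonate 2 or neonate 3 (adjusted p up to 0.248). Nefm, a neurofilament, was at 0 in all 3 aged against 7.49, 38.6 and 24.9 in neonate libraries (adjusted p = 0.0178). Nefm lost its call without neonate library 2 or neonate 3 (adjusted p up to 0.115). Tubb3 was at 0 in all 3 aged against 17, 4.35 and 6.19 in neonate libraries (adjusted p = 0.218). Of 21 tested astrocyte genes Gfap, the astrocyte filament, fell, at 12.1, 0 and 12.2 in aged against 106, 157 and 72.8 in neonate libraries (log2 -4.27 ± 1.09, adjusted p = 0.0306). Gfap lost its call without aged library 2, neonate 1, neonate 2 or neonate 3 (adjusted p up to 0.212). Leaving out the broad libraries gave 2 falls among astrocyte genes. In the Id and Notch effector list, 0 of 23 tested members rose and 2 fell, and without the broad libraries 0 rose and 3 fell. Id3, which holds progenitors undifferentiated, was at 0 in all 3 aged against 68.9, 127 and 56.4 in neonate libraries (adjusted p = 0.00536). Hes6, a neurogenic factor, was at 0 in all 3 aged against 12.2, 18.4 and 22.5 in neonate libraries (adjusted p = 0.022). Hes6 lost its call without neonate library 1, neonate 2 or neonate 3 (adjusted p up to 0.0975). In the imprinted list, 0 of 21 tested members rose and 2 fell, and 10 differences were above 0 and 10 below. Without the broad libraries 0 rose and 2 fell. Its member Ndn (necdin) was at 17.4, 0 and 0 in aged against 78.3, 30.7 and 85.6 in neonate libraries (log2 -4.51 ± 1.03, adjusted p = 0.0137). Ndn lost its call without aged library 2, neonate 1 or neonate 3 (adjusted p up to 0.0799).

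No gene of the endothelial list passed the test in limma (3 at an unadjusted p below 0.05, 1 called by voom), nor of the pericyte and fibroblast list (1 at an unadjusted p below 0.05, 0 called by voom), the Schwann cell list (1 at an unadjusted p below 0.05, 0 called by voom), the ependyma and choroid plexus list (0 at an unadjusted p below 0.05, 0 called by voom) or the red blood cell list (0 at an unadjusted p below 0.05, 0 called by voom). The endothelial list still had a median of 1.43, with 15 of 16 differences above 0, and the pericyte and fibroblast list one of 1.32, with 12 of 14 above 0. Without the broad libraries these medians were 0.726 and 0.411, and 1 gene of the latter list rose. Flt1, a VEGF receptor of endothelium, was at 17.5, 37.8 and 17.7 in aged against 2.31, 0 and 1.59 in neonate libraries, with no overlap between the ages, but did not pass (log2 3.54 ± 1.09, adjusted p = 0.0977). Pecam1, the endothelial marker, was at 6.26, 0.832 and 0 in aged against 0 in all 3 neonate libraries (adjusted p = 0.661). In the lymphocyte list Cd4, which rat macrophages also carry, rose, at 31.4, 96.5 and 20.2 in aged against 0, 1.06 and 6.18 in neonate libraries (log2 4.05 ± 0.87, adjusted p = 0.00863). Cd4 lost its call without aged library 2 or neonate 1 (adjusted p up to 0.0702). The 14 tested housekeeping genes gave no call in limma (3 at an unadjusted p below 0.05, 0 called by voom), with a median of 0.09; without the broad libraries 0 rose and 2 fell. Gapdh was at 148, 12.2 and 79.1 in aged against 233, 231 and 139.9 in neonate libraries (log2 -1.87 ± 0.67, adjusted p = 0.181) and Ppia at 221, 0 and 51.4 in aged against 444, 202 and 196 in neonate libraries (log2 -3.53 ± 1.06, adjusted p = 0.0854). Even these abundant genes were at 0 in places: 0, 3 and 6 of 14 in aged libraries 1 to 3, against 3, 5 and 3 in neonate ones.

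Of the 12 largest rises, Nab2, Trpt1 and Ddx39a lay beside immune genes, and the deposited command lines carry no strand option. How many of all tested genes lie this close to an immune gene was not counted. Nab2, a transcriptional corepressor, was the most abundant of the 12 largest rises, at 1393, 1930.4 and 892 in aged against 25, 11.4 and 11.2 in neonate libraries, an 88.6-fold ratio of means (log2 6.41 ± 0.54, adjusted p = 5.68e-08). It lies on rn6 chromosome 7, 70963580 to 70969972, within 1000 bases of Stat6, which signals in immune cells. Trpt1, an enzyme of tRNA processing, was at 552, 758 and 291 in aged against 10.7, 0 and 2.39 in neonate libraries (log2 7.18 ± 0.77, adjusted p = 4.05e-06) and overlaps exons of Fermt3 on the opposite strand at rn6 chromosome 1, 222250995 to 222255994. Ddx39a, an RNA helicase, was at 208, 221 and 103 in aged against 0, 4.46 and 0 in neonate libraries (log2 6.58 ± 0.88, adjusted p = 6.45e-05) and lies within 1000 bases of Adgre5, an adhesion receptor of leukocytes. Of the 171 rises 20 (11.7%) overlap exons on the opposite strand, of the 159 falls 10 (6.29%) do, and of all tested genes 3.9% do. The library kit was stranded, but whether strand was used in the alignment is not given. If it was not, reads from such partners cannot be told apart.

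The age differences on stiff gels were set beside those on soft gels and in primary sorted cells, which share no library with them. All 3 comparisons came from the same fit and share its estimate of each gene's spread, so their calls are not independent. Of 171 rises on stiff gels 89 were also called on soft gels, which is 52.0% of the stiff and 43.0% of the 207 soft rises, and 67 were called in primary cells, which is 39.2% of the stiff and 22.8% of the 294 primary rises. Of the 159 falls 18 were called on soft gels, 11.3% of the stiff and 62.1% of the 29 soft falls, and 28 in primary cells, 17.6% of the stiff and 28.0% of the 100 primary falls. The share of all tested genes called was 1.56% on soft gels (1.37% higher, 0.191% lower) and 2.6% in primary cells (1.94% higher, 0.66% lower). The 171 rises had a median difference of 4.59 on stiff gels, 3.58 on soft gels and 2.88 in primary cells, and the 159 falls had -3.88, -1.19 and -0.98. Without the genes at 0 in all libraries of an age on stiff gels, the 94 rises left had medians of 4.05, 3.56 and 2.25 and the 124 falls left had -3.62, -1.18 and -0.90. These medians describe genes chosen for a difference on stiff gels, so a smaller value elsewhere is not a test.

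**Figure D5:**
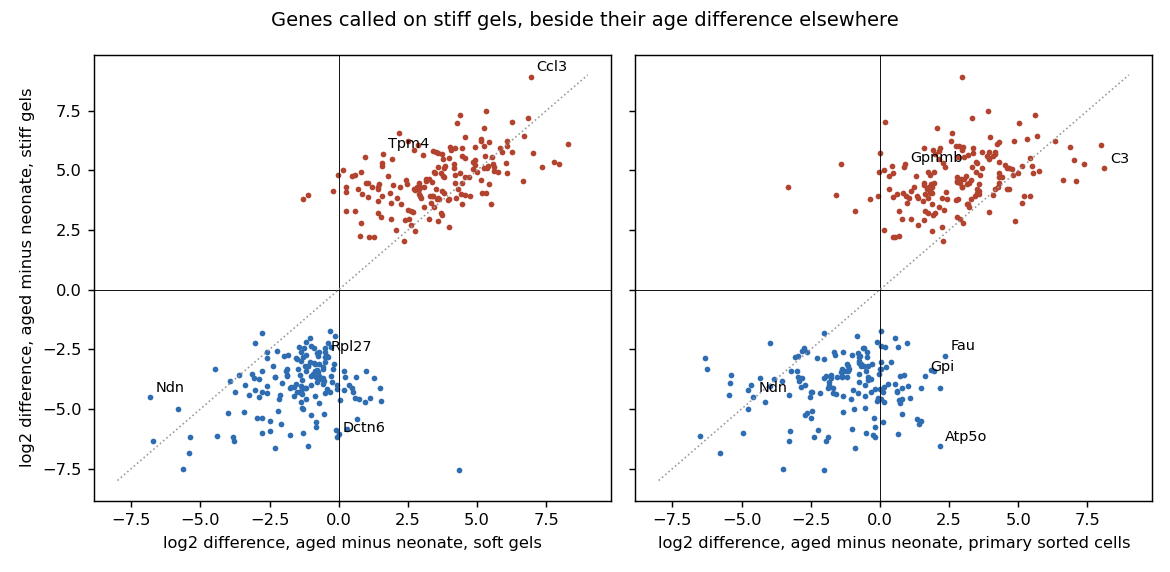
Each point is 1 of the 330 genes called on stiff gels (red higher, blue lower in aged), with its log2 age difference on stiff gels on the y axis and on soft gels (left) or in primary sorted cells (right) on the x axis; the dotted line marks equal differences. Most points keep their sign, 167 of 171 rises and 139 of 159 falls on soft gels and 163 and 118 in primary cells. Of all 15144 tested genes, 10775 were above 0 and 4209 below on soft gels, and 10328 and 4595 in primary cells. In primary cells 1 of the falls was called in the opposite direction.

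The ribosomal protein list had a median age difference of -1.96 on stiff gels, -0.50 on soft gels and -0.24 in primary cells, and 21, 1 and 0 members fell. In primary cells 1 member rose. The difference between stiff and soft gels in the age effect was tested gene by gene. It was called for 1 of 15144 genes, 0.0066%, with 793 genes at an unadjusted p below 0.05. That gene was Dctn6, a subunit of the dynactin motor complex, at 0 in all 3 aged against 38.3, 188 and 51.6 in neonate libraries on stiff gels, 32.4, 31.2 and 29.5 in the aged and 28.2, 39.6 and 31.1 in the neonate libraries on soft gels (adjusted p = 0.0475). The call was lost when any of 12 of the 18 single libraries was left out, neonate library 2 on stiff gels among them, and no ribosomal protein gene passed.

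Against primary cells the age effect on stiff gels differed for 13 genes, 0.0858%, of which 12 were lower and 1 higher. Cst3 (cystatin C), a protease inhibitor abundant in microglia, was at 639, 962 and 1609.9 in aged against 1154, 1445 and 1029.6 in neonate libraries on stiff gels, where its ages overlapped, and at 30998, 45978 and 57723 in the aged and 753, 919 and 1649.9 in the neonate primary cells (difference of differences -5.64 ± 0.61 SE, limma adjusted p = 1.19e-05). Apoe, the lipid carrier of glia, was at 81, 237 and 181 in aged against 561, 1129 and 321 in neonate libraries on stiff gels and at 944, 1821 and 1887 in the aged and 153, 94.4 and 261 in the neonate primary cells (-5.19 ± 0.82 SE, limma adjusted p = 0.00674). So Apoe was higher in aged primary cells, and lower on average in aged cells on stiff gels without passing the test there (log2 -1.95 ± 0.58, adjusted p = 0.0789). Fau, a ribosomal protein fused to a ubiquitin-like sequence, was at 270.1, 245 and 68.3 in aged against 1243, 942 and 1229 in neonate libraries on stiff gels and at 737, 1313 and 1517 and 662, 72.3 and 226 in aged and neonate primary cells (-5.11 ± 0.83 SE, limma adjusted p = 0.00705). Kctd18, the 1 gene with a higher age effect on stiff gels, was at 100.3, 153 and 453 in aged against 293, 260.4 and 174 in neonate libraries there and at 10.7, 41.2 and 14.1 and 399, 696 and 482 in primary cells (4.41 ± 0.84 SE, limma adjusted p = 0.0295). The count ranged from 4 to 55 over the alternatives.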

How the data were processed

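RNA was measured in 18 rat libraries by total RNA sequencing, 6 of them on stiff gels. Per the labels' protocols, the authors extracted RNA with a Zymo kit and made libraries with a stranded SMARTer pico kit, sequenced as pairs of 150 bases. Per the submitters' processing notes, Trimmomatic, HISAT2, Bowtie and StringTie were used, with no role or order given. Per the file headers, the authors ran StringTie 1.3.2d against an rn6 gene annotation, estimating annotated transcripts only, with a minimum length option of 100 and no strand option. The deposited files hold, on each transcript line, coverage, FPKM and TPM in 1 attribute field, so TPM is a relative level per transcript length, not a count, and carries no depth of its own. Some headers carry other library names than the titles, so each file was grouped by its sample's title and replicate numbers were not taken as pairs.

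TPM was summed per gene for 17337 genes. Levels were divided by a median-of-ratios factor from 1644 genes, and log2 of the level plus 1 was fitted with limma 3.58.1 (R 4.3.3), with a trend, 6 group means and all 18 libraries, over 15144 genes at a TPM of 1 or more in at least 3 libraries. Differences are on that log2 scale, and calls have a Benjamini-Hochberg adjusted p below 0.05. The added 1 shrinks the change of genes that are low but above 0 in every library. Where only some libraries of an age are at 0, the difference can exceed the ratio of means, as for Ddt (-6.08 beside 10.0-fold). Read pairs were estimated from coverage at 300 bases per pair; they are approximate and cover counting error only. The fitting script was tested on simulated data. Of the gene names, 14821 matched a RefSeq symbol and 2125 a synonym, and promoter windows came from RefSeq (GRCr8).

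The libraries compared and the 44 gene lists were chosen with earlier results of these data known. Genes are named by rule: the 12 largest called rises and falls with a mean of 5 or more and no overlap between ages, up to 4 called members per list by p, 2 members of lists without calls, fixed markers, and 6 genes per direction for each difference of differences; Trem2 and P2ry12 were added later. Alternatives covered pseudocount, filter, scaling, ribosomal RNA, weights, voom, thinning, covariate, block, groups fitted and each library left out.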

Additional observations from a re-analysis of the deposited data

Results flagged for a closer look

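The age effect on stiff gels differed from that on soft gels by a test of the difference in 1 gene: Dctn6, with a difference of differences of -6.12 on the log2 scale (limma adjusted p = 0.0475).

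Against primary sorted cells, the same test was passed by 13 genes. The age effect on stiff gels was lower by a value of -5.64 for Cst3, -5.19 for Apoe, -5.11 for Fau, -8.71 for Atp5o, -5.26 for Gpi and -6.02 for Dctn6. It was also lower for Pik3r3 (-6.68), a regulatory subunit of PI3 kinase, Atp6v0e2 (-5.48), a subunit of the vacuolar proton pump, and Mir3596d (-6.9997), listed as a microRNA locus whose value is no level of a mature microRNA. Of the structural RNAs, Rmrp gave -4.46, Rn18s gave -3.36 and Rn5-8s gave -3.23. Rn18s and Rn5-8s are ribosomal RNA. On stiff gels ribosomal RNA genes took a smaller share of TPM in every aged than in every neonate library. In primary cells these shares overlapped between the ages. Whether Rn18s and Rn5-8s show more than this difference in share between libraries was not tested. The age effect on stiff gels was higher for Kctd18, at 4.41. The adjusted p over the 13 genes ran from 1.19e-05 to 0.0415, and Pik3r3 and Mir3596d no longer passed without the broad libraries (adjusted p = 0.0615 and 0.0676). Dctn6, Atp5o, Pik3r3 and Mir3596d were at 0 in all 3 aged libraries on stiff gels, so their values depend on the 1 added to each level and give no size of the change.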

How the results depend on the processing

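The 330 calls on stiff gels became 21 with only the groups compared and 137 with thinned libraries, and ran from 185 to 694 with 1 library left out. The difference to soft gels, 1 gene, became 0 with array weights, no filter, no scaling, the olfactory receptor covariate, only the groups compared, quantile normalization, thinned libraries or voom, 6 without the broad libraries, and 0 to 6 with 1 library left out. The difference to primary cells, 13 genes, became 49 with array weights, 7 with no scaling, 30 with the olfactory receptor covariate, 4 with only the groups compared, 37 with voom and 55 without the broad libraries, and 4 to 32 with 1 library left out. Fewer samples give fewer degrees of freedom in the fit of only the groups compared; otherwise the cause was not tested.

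Of 80 called genes named, 51 held whichever stiff-gel library was left out, 70 without the broad libraries, 66 with quantile normalization and 15 with only the groups compared. With a replicate block the counts were 360 on stiff gels, 1 against soft gels and 13 against primary cells. The deviations of same-numbered stiff-gel libraries from their group means had correlations of 0.013, 0.012 and -0.015. For libraries of different numbers these ran from -0.036 to 0.023. At this depth such values cannot show whether libraries were paired. Depth limits every statement on genes at 0.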

Other observations

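Many called genes belonged to none of the 44 lists: 122 of the 171 rises and 105 of the 159 falls. Among the rises, Fxyd2, a regulator of the sodium pump, was at 88.5, 183 and 132 in aged against 0 in all 3 neonate libraries (adjusted p = 1.73e-04), on 6.1 estimated pairs, and LOC500300, which has no gene symbol, was at 95, 406 and 150.3 in aged against 0 in all 3 neonate libraries (adjusted p = 1.50e-04). Among the falls, Ngfrap1 (also called Bex3), a small protein that binds the p75 neurotrophin receptor, was at 0 in all 3 aged against 148, 112 and 86.9 in neonate libraries (adjusted p = 2.13e-05). Mt3, the metallothionein of the brain, was at 0 in all 3 aged against 64.6, 182 and 41.7 in neonate libraries (adjusted p = 0.00849). Mt3 lost its call without neonate library 2 (adjusted p up to 0.0674). Ddt, a tautomerase related to the cytokine MIF, was at 0, 0 and 93.9 in aged against 391, 320.2 and 232 in neonate libraries (log2 -6.08 ± 1.05, adjusted p = 8.78e-04).

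The called fall listed as Mir93 lies on rn6 chromosome 12, 19307543 to 19307629, within 1000 bases of Mcm7, a replication licensing gene. It was at 0 in all 3 aged against 71.3, 261 and 351 in neonate libraries (adjusted p = 0.0201), on 4.8 estimated pairs. Mir93 lost its call without aged library 1, aged 2, neonate 2 or neonate 3 (adjusted p up to 0.0894). A read of a long RNA library on this locus is no measure of the mature microRNA.

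On stiff, soft and primary comparisons together, 51 genes were called higher in aged libraries in all 3 and 10 were called lower in all 3. The 51 include Nab2, C3, Cd68, Cyba, Fcgr2a, Irf8, Itgb2, Laptm5, Lgmn and Ptpn6. The 10 are Apeg3, Camk2n2, Hist1h2ail1, Hist1h2bd, Lims2, Marcksl1, Ncan, Ndn, Ngfrap1 and Tubb2b.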
